A study of Mus musculus with 2 samples.

Results

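The genes described here are 35 enzymes and regulators of sterol and fatty acid synthesis, taken by symbol from the gene tables of both libraries, out of 17431 genes with a read in either. They fall into 17 enzymes of the sterol arm, from acetyl-CoA to cholesterol, 12 enzymes of the fatty acid arm, from acetyl-CoA to unsaturated fatty acids, and 6 genes that control the SREBP transcription factors. The list does not hold every enzyme of these pathways. All 35 were found in both libraries. RNA was sequenced from 2 cultures of BALB/c mouse dermis, 1 library each. The skin-derived precursors (SKPs), multipotent cells that can be grown from the dermis, came from mice at postnatal day 4 and were grown in DMEM/F12 containing the growth factors FGF2 (40 ng/ml) and EGF (20 ng/ml), 2% B27 supplement and 0.1% penicillin/streptomycin. The fibroblasts came from mice at postnatal day 3 and were grown in DMEM with 10% fetal bovine serum. Cell type, medium, serum and age differed together between the cultures and cannot be told apart. With 1 library per cell type there was no replicate check and no test between cell types, so every difference is a difference between these libraries.

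Cholesterol and fatty acids are both built from cytosolic acetyl-CoA. In the sterol arm acetyl-CoA becomes mevalonate, then isoprenoid diphosphates, squalene, lanosterol and cholesterol. In the fatty acid arm it is carboxylated, built into palmitate, and then elongated and desaturated. Both arms are transcribed under SREBP factors, which are held in the endoplasmic reticulum by SCAP and INSIG proteins when sterols are plentiful and are cut free in the Golgi when sterols are scarce. SREBP2, from Srebf2, is best known for sterol genes, and SREBP1, from Srebf1, for fatty acid genes. In skin these pathways supply the lipids of the epidermal barrier, of sebum and of dermal fat.

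SREBP factors are known to act on promoters together with NF-Y, which binds the CCAAT box, and Sp1, which binds the GC box. RefSeq promoter windows of the GRCm38.p6 build, running from 250 bases before to 50 bases after each annotated start, were matched for 28 of the 35 genes. Acat2, Hmgcs1, Mvk, Pmvk, Mvd, Idi1, Lss, Cyp51, Tm7sf2, Nsdhl, Hsd17b7, Ebp, Sc5d and Dhcr7 had a window in the sterol arm. Fdps, Fdft1, Sqle, Scd1, Scd2, Fads1 and Stard4 had no window. The 250 bases before the start are shown for 5 sterol genes, for their CCAAT boxes, and for Fasn of the fatty acid arm, each 5′ to 3′ along the gene. Capitals mark the CCAAT box, read as CCAAT or, on the other strand, ATTGG, and the core of the sterol regulatory element, TCACNCCAC. The windows are Hmgcs1 at chr13:119690101-119690350 on the plus strand, Mvk at chr5:114444019-114444268 on the plus strand, Idi1 at chr13:8885356-8885605 on the plus strand, Lss at chr10:76531355-76531604 on the plus strand, Hsd17b7 at chr1:169969206-169969455 on the minus strand and Fasn at chr11:120824548-120824797 on the minus strand.
Hmgcs1: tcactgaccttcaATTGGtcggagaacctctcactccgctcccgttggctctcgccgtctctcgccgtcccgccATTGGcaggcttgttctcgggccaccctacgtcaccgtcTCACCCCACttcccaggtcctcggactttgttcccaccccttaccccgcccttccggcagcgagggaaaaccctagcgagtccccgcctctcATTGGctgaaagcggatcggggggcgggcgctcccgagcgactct
Mvk: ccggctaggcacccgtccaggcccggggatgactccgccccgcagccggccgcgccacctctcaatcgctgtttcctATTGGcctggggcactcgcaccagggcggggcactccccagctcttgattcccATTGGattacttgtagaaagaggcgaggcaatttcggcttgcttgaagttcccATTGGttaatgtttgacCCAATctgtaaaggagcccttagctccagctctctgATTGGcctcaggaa
Idi1: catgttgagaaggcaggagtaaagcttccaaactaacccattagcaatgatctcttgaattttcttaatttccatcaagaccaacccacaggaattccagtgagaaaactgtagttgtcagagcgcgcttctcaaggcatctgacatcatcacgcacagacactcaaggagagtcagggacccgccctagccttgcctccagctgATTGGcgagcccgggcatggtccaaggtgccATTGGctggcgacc
Lss: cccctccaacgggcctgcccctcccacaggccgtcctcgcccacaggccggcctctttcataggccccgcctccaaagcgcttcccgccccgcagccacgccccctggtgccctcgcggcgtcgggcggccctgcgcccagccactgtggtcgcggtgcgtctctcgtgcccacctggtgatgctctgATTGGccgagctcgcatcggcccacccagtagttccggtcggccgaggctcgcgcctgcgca
Hsd17b7: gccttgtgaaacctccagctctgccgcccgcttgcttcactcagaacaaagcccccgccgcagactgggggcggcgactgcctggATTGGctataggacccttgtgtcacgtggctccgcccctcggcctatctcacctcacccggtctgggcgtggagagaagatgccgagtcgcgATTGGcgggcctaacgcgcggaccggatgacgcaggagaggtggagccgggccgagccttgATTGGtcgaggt
Fasn: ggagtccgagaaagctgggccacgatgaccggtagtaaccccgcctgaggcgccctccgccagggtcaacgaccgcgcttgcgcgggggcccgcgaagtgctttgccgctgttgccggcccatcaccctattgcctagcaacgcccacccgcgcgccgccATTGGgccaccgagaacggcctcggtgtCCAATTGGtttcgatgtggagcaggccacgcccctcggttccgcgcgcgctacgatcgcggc

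The stretch before Hmgcs1 holds 3 CCAAT boxes and 1 sterol regulatory element core. The one before Mvk holds 5 CCAAT boxes, that before Idi1 holds 2, that before Lss holds 1, and those before Hsd17b7 and Fasn hold 3 each, of which a pair before Fasn overlap on opposite strands. Over the whole windows, searched on both strands, a CCAAT box was found in 13 of 14 sterol genes (92.9%), in 6 of 9 fatty acid genes (66.7%) and in 4 of 5 SREBP control genes (80.0%). Among the expressed genes with a window it was found in 43.2%, and among all genes of the table in 41.1%. The sterol gene without it was Acat2. At least 2 CCAAT boxes were found in 8 of 14 sterol genes, against 16.7% of expressed genes. A GC box, GGGCGG on either strand, was found in 13 of 14 sterol genes, in 4 of 9 fatty acid genes and in 5 of 5 SREBP control genes, against 70.6% of expressed genes and 38.2% of all genes. The E-box CACGTG, which SREBP factors can also bind, was found in 6 of 28 members, namely Hsd17b7, Sc5d, Dhcr7, Elovl5, Scap and Insig1, against 12.04% of expressed genes and 8.09% of all genes. The sterol regulatory element core was found in 1 of 28 members, Hmgcs1, against 1.40% of expressed genes and 1.44% of all genes. Only exact matches to TCACNCCAC inside the window were counted. A window without a match can therefore still hold an element of another sequence. Motifs were counted whether or not they overlapped another motif. Of the 27025 genes with a window, 22862 had 1 window. A gene with several, as 6 of the members had, counted once, and an annotated start need not be the one used in these cells. Among genes with 1 window the CCAAT box was found in 11 of 12 sterol genes, against 38.2% of all such genes.

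Levels are given as RPKM, reads scaled by gene length in kilobases and by the library's counted total. Expressed genes received 18887168 reads in SKPs and 18358401 in fibroblasts, and 1 read in a gene of 1 kb was worth 0.0528 RPKM in SKPs and 0.0543 RPKM in fibroblasts. Each member had at least 156 reads in the SKP library and at least 177 in the fibroblast library, and each stood above 1 RPKM in both. Expressed genes, 12053 in all, are those that reached both RPKM 1 and 20 reads in the same library. A gene is called higher or lower for a difference of 2-fold or more whose 95% exact (Clopper-Pearson) counting interval leaves out equality. Intervals, given in parentheses, cover counting error only and leave out variation between cultures and libraries. Duplicates of a molecule made by PCR are not independent, so the intervals may be too narrow even for counting error. All 9 dermal fibroblast markers were expressed in both libraries, with summed levels of 10605 RPKM in SKPs and 10784 RPKM in fibroblasts. Of these, 3 were higher in SKPs (Lum, Dcn and Col3a1), 2 were lower (Col1a1 and Thy1) and 4 were neither. Counts in the marker lists stand against 12.1% of expressed genes higher in SKPs and 6.41% lower. All 8 SKP markers were expressed in the SKP library, summing to 247 RPKM, against 217 RPKM in fibroblasts, with 3 higher (Nes, Sox2 and Msx1) and 5 neither.

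Cells of other types that make or store lipids could bear on these genes, so their markers were read in both libraries. Their counts stand against the same 12.1% of expressed genes higher in SKPs and 6.41% lower. Of 13 adipocyte markers, 11 were higher in SKPs, 1, Lpl, was lower and 1, Pparg, was neither. Their summed level was 584 RPKM in SKPs and 363 RPKM in fibroblasts, of which Lpl gave 150 RPKM (149.6) in SKPs and 321 RPKM in fibroblasts. All 13 reached RPKM 1 in SKPs and 5 did so in fibroblasts (Lpl, Fabp4, Cebpa, Pparg and Dgat2). Fabp4, a fatty acid carrier, had 243 RPKM in SKPs against 22.6 RPKM in fibroblasts, and Cebpa, an adipocyte transcription factor, had 23.99 RPKM in SKPs against 7.93 RPKM in fibroblasts. Others were at or near 0 in fibroblasts: Cidec had 1647 reads in SKPs against 1 in fibroblasts, Adipoq 830 against 4, Retn 135 against 0 and Lep 91 against 0. Of 7 sebocyte markers 3 were expressed, 1 of them higher in SKPs (Krt79, 45 reads against 0), and the list summed to 216 RPKM in SKPs and 148 RPKM in fibroblasts, nearly all of it Plin2 and Soat1. Of 10 keratinocyte markers 6 were expressed, all higher in SKPs, and the list summed to 33.3 RPKM in SKPs and 3.00 RPKM in fibroblasts, with Ivl and Krt1 at 0 reads in fibroblasts. Of 8 leukocyte markers 3 were expressed, all higher in SKPs (Fcer1g, Lyz2 and Cd68), summing over the list to 25.9 RPKM in SKPs and 4.34 RPKM in fibroblasts, with Emr1 at 0 reads in fibroblasts. All 6 mast cell markers were higher in SKPs, at a sum of 83.0 RPKM, against 0.133 RPKM in fibroblasts, with Cpa3 and Mcpt4 at 0 reads there. The part of these cell types in the values below was not tested.

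The sterol arm was lower in the SKP library at every one of its 17 measured steps, against 50.5% of expressed genes that were lower by any amount. Of the 17 enzymes, 15 were at least 2-fold lower in SKPs and none was higher, against 6.41% of expressed genes lower and 12.1% higher. Each of the 17 reached RPKM 10 in at least 1 library, and among genes at that level 5.52% were lower and 8.98% higher. At 3-fold 7 were lower (Hmgcs1, Pmvk, Mvd, Idi1, Fdps, Lss and Ebp) and none higher, against 3.04% of expressed genes lower and 7.78% higher. The median log2 ratio was -1.41, a 2.67-fold lower level, against -0.01 over all expressed genes. The ratios ranged from -2.05 for Fdps to -0.66 for Dhcr7, and the intervals of 12 enzymes lay wholly beyond 2-fold. The summed level of the arm was 354 RPKM in SKPs and 1022 RPKM in fibroblasts. In whole cultures, fewer cells that make a transcript and less of it per cell cannot be told apart.

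**Figure D1:**
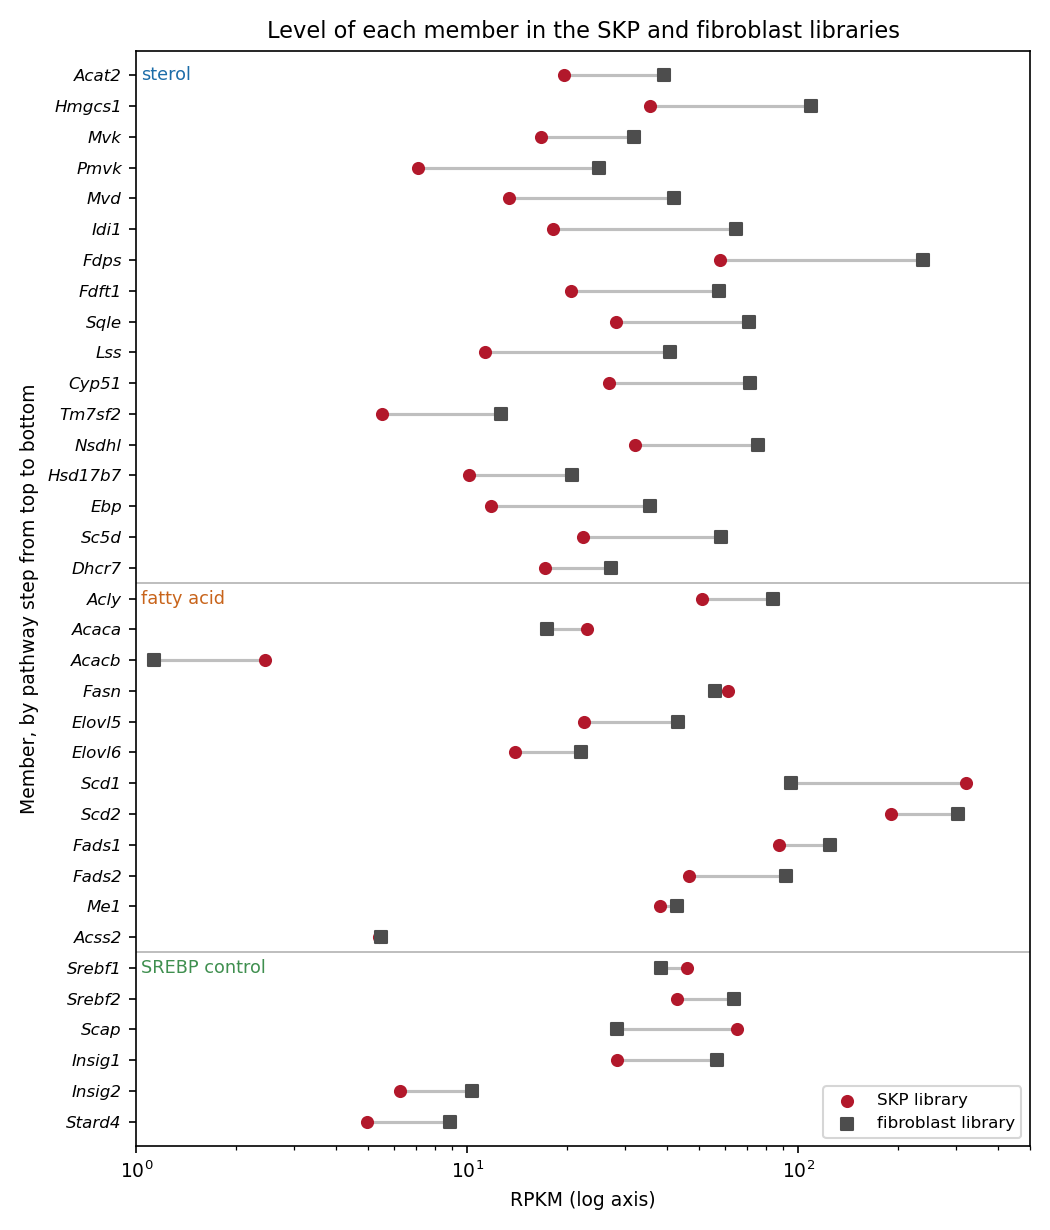
RPKM of each of the 35 genes on a log axis, by pathway step from top to bottom, with circles for the SKP library, squares for the fibroblast library and a grey line between them. All 17 sterol enzymes lie lower in SKPs, while Scd1, Scap, Acacb, Acaca, Fasn and Srebf1 lie higher in SKPs, and the circle of Acss2 is hidden by its square.

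The first steps make mevalonate and turn it into isoprenoid units. Acat2, the cytosolic thiolase that joins acetyl-CoA units, stood at 19.6 RPKM in SKPs against 39.3 RPKM in fibroblasts and was 2.01-fold lower in SKPs (1.84 to 2.19). Hmgcs1, which makes HMG-CoA, stood at 35.7 RPKM in SKPs against 109 RPKM in fibroblasts and was 3.05-fold lower (2.91 to 3.20). The kinases that follow differed from each other: Mvk, mevalonate kinase, had 16.7 RPKM in SKPs against 31.8 RPKM in fibroblasts, 1.90-fold lower and just under the 2-fold line, while Pmvk, phosphomevalonate kinase, had 7.10 RPKM in SKPs against 24.9 RPKM in fibroblasts, 3.51-fold lower (2.94 to 4.21). Mvd, the decarboxylase that makes isopentenyl diphosphate, had 13.3 RPKM in SKPs against 42.2 RPKM in fibroblasts. Idi1, which interconverts the isoprenoid units, had 18.2 RPKM in SKPs against 65.0 RPKM in fibroblasts and was 3.58-fold lower (3.33 to 3.84).

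Fdps, which joins these units into farnesyl diphosphate at the branch towards sterols, prenylated proteins and ubiquinone, differed most of the 35 in favour of fibroblasts. It had 57.8 RPKM and 1618 reads in SKPs, against 239 RPKM and 6495 reads in fibroblasts, 4.13-fold lower in SKPs (3.91 to 4.37). Of all expressed genes 1.92% had a lower ratio. Fdps was the second most abundant of the 35 genes in fibroblasts and had rank 6 in SKPs. The 7 enzymes from Acat2 to Fdps had a median log2 ratio of -1.66.

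The 10 enzymes from squalene to cholesterol had a median of -1.36, and 9 of them were at least 2-fold lower in SKPs. Fdft1, squalene synthase, had 20.5 RPKM in SKPs against 57.4 RPKM in fibroblasts. Sqle, the squalene epoxidase that is a control point of the arm, had 28.2 RPKM in SKPs against 71.1 RPKM in fibroblasts and was 2.52-fold lower (2.37 to 2.68). Lss, which closes the ring to lanosterol, had 11.3 RPKM in SKPs against 40.9 RPKM in fibroblasts, at 3.63-fold lower (3.33 to 3.95) the largest difference after squalene. The levels fell into a similar order in both libraries, and the size of the difference did not follow the order of the steps.

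After lanosterol, Cyp51, the lanosterol demethylase, had 26.8 RPKM in SKPs against 71.6 RPKM in fibroblasts and was 2.67-fold lower. Tm7sf2, a sterol reductase, was the least abundant enzyme of the arm at 5.50 RPKM in SKPs against 12.6 RPKM in fibroblasts, and its interval (1.89 to 2.78) reached under 2-fold. Nsdhl, a dehydrogenase in the removal of sterol methyl groups, had 32.1 RPKM in SKPs against 75.5 RPKM in fibroblasts. Hsd17b7, the ketoreductase of the same reaction cycle, had 10.1 RPKM in SKPs against 20.8 RPKM in fibroblasts, a difference of 2.06-fold (1.90 to 2.23). All 4 of these enzymes lay between 2.06-fold and 2.67-fold lower in SKPs. They are not an unbroken run of steps. Sc4mol, the methyl oxidase of the same cycle, is not among the members and was 2.92-fold lower.

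Ebp, the sterol isomerase, had 11.8 RPKM in SKPs against 35.7 RPKM in fibroblasts and was 3.03-fold lower (2.70 to 3.40). Sc5d, the sterol desaturase that follows it, had 22.4 RPKM in SKPs against 58.4 RPKM in fibroblasts, at 2.604-fold lower. Dhcr7, the reductase that finishes cholesterol, differed least in the arm, with 17.2 RPKM in SKPs against 27.1 RPKM in fibroblasts, 1.58-fold lower (1.46 to 1.72). Just inside the 2-fold line lay Acat2 and Hsd17b7 and just outside it Mvk, with intervals that all reached across it. Acat2 crossed the line with median-of-ratios factors, and Acat2 and Hsd17b7 crossed it on the log2(RPKM + 1) scale. Across the 17 enzymes Spearman's rho between the libraries' RPKM was 0.914, against 0.891 over all expressed genes. Between log2 ratio and step order it was 0.26. Between log2 ratio and fibroblast RPKM it was -0.44, but fibroblast RPKM is the denominator of that ratio, which alone can make rho negative. The points share both libraries, so these are descriptions.

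**Figure D2:**
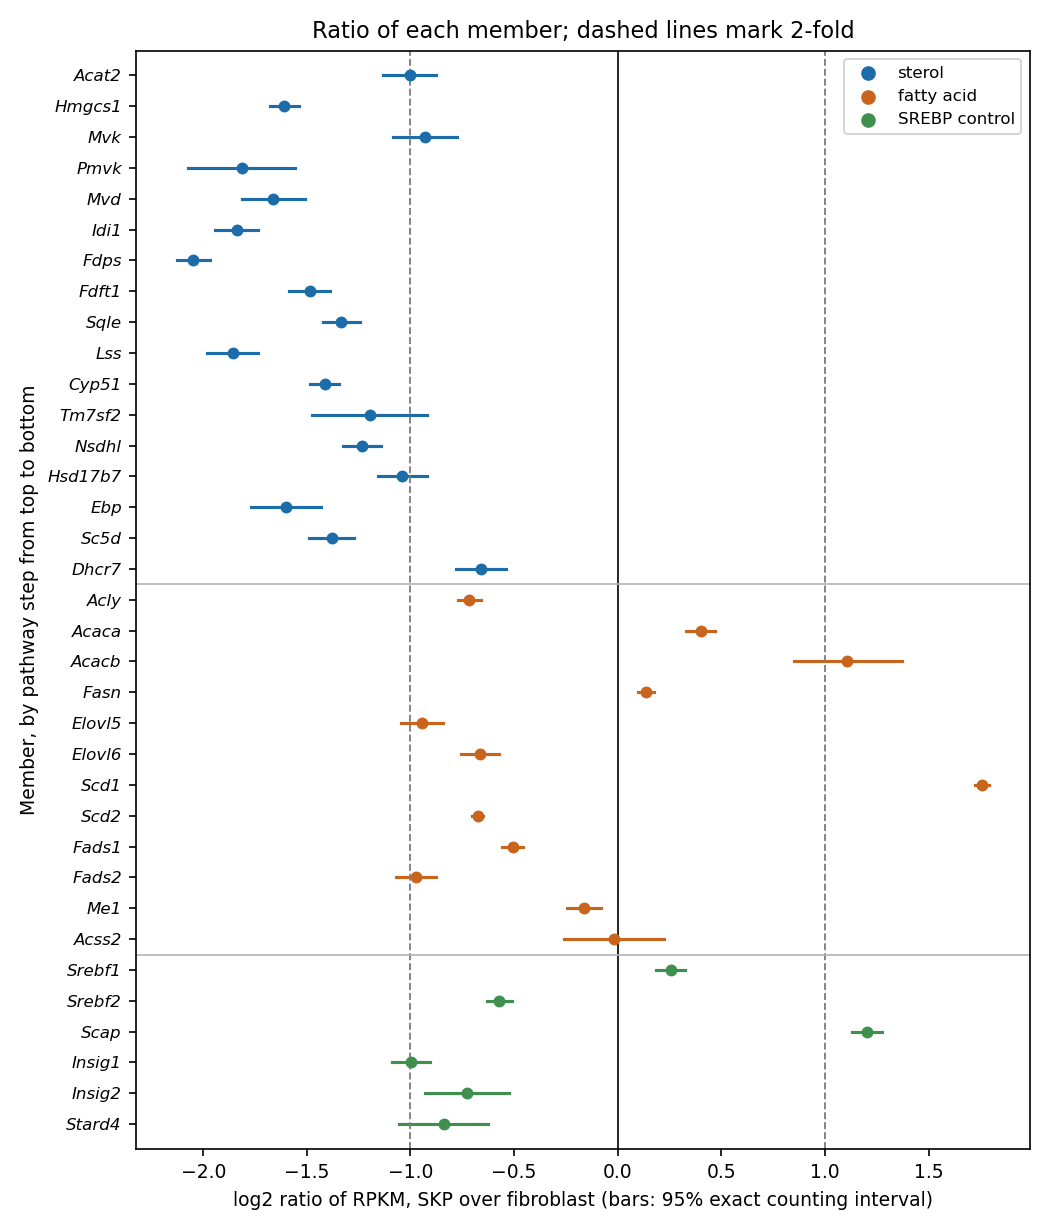
Log2 ratio of RPKM, SKP over fibroblast, for each of the 35 genes by pathway step, with 95% exact counting intervals as bars and dashed lines at 2-fold. The sterol enzymes lie between -2.05 and -0.66, while fatty acid enzymes and SREBP control genes lie on both sides of 0.

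The fatty acid arm lay on both sides of equality. Of its 12 enzymes, 2 were at least 2-fold higher in SKPs (Scd1 and Acacb), none was 2-fold lower and 10 were neither, with a median log2 ratio of -0.34. These counts are close to the 12.1% of expressed genes higher and 6.41% lower. At 1.5-fold 5 were lower (Acly, Elovl5, Elovl6, Scd2 and Fads2) and the same 2 were higher, against 14.2% of expressed genes lower and 18.7% higher. The summed level of the arm was 863 RPKM in SKPs and 887 RPKM in fibroblasts.

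Of the 6 enzymes that supply acetyl-CoA or NADPH and build palmitate, 3 stood lower in SKPs (Acly, Me1 and Acss2) and 3 stood higher (Acaca, Acacb and Fasn). Acly, the citrate lyase that releases cytosolic acetyl-CoA, had 51.0 RPKM in SKPs against 83.8 RPKM in fibroblasts and was 1.64-fold lower (1.58 to 1.71). Acss2, which makes acetyl-CoA from acetate, had 5.42 RPKM in SKPs and 5.48 RPKM in fibroblasts, and was the 1 gene of the 35 whose interval held equality. Acaca, the cytosolic acetyl-CoA carboxylase that commits carbon to fatty acids, had 23.0 RPKM in SKPs (22.96) against 17.4 RPKM in fibroblasts, 1.32-fold higher (1.26 to 1.39). Acacb, the mitochondrial form whose product restrains fatty acid oxidation, was the least abundant of the 35 in both libraries, with 2.44 RPKM and 393 reads in SKPs against 1.13 RPKM and 177 reads in fibroblasts, 2.16-fold higher (1.80 to 2.59). On the log2(RPKM + 1) scale its ratio was 0.69, under 2-fold.

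Fasn, the synthase that builds palmitate, had 61.5 RPKM in SKPs and 55.9 RPKM in fibroblasts, 1.10-fold higher (1.07 to 1.13). Me1, the malic enzyme that supplies NADPH to this step, had 38.3 RPKM in SKPs and 42.8 RPKM in fibroblasts, 1.12-fold lower (1.06 to 1.18). Of these 6 enzymes, the synthase, its NADPH source and the acetate-activating enzyme lay within 1.12-fold between the libraries. The other 3 differed more, with Acly 1.64-fold lower, Acaca 1.32-fold higher and Acacb 2.16-fold higher in SKPs. The sterol enzymes were 1.58-fold to 4.13-fold lower.

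Elongases and desaturases, apart from Scd1, were lower in SKPs by less than 2-fold. Elovl5, which lengthens polyunsaturated chains, had 22.5 RPKM in SKPs against 43.3 RPKM in fibroblasts, 1.92-fold lower (1.79 to 2.07). Elovl6, which lengthens palmitate to stearate, had 14.0 RPKM in SKPs (13.97) against 22.1 RPKM in fibroblasts, 1.58-fold lower. Fads1 and Fads2 desaturate polyunsaturated chains. Fads1 had 87.5 RPKM in SKPs against 124 RPKM in fibroblasts, 1.42-fold lower (1.37 to 1.47), and Fads2 had 46.6 RPKM in SKPs against 91.5 RPKM in fibroblasts, 1.96-fold lower (1.84 to 2.10).

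The stearoyl-CoA desaturases, which put the first double bond into saturated chains, went in opposite directions. Scd1, the main form of fat and sebaceous tissue, had 320.3 RPKM and 29402 reads in SKPs against 94.8 RPKM and 8448 reads in fibroblasts, 3.38-fold higher (3.30 to 3.46). Scd2, the form more widely expressed in the young mouse, had 190.4 RPKM and 19672 reads in SKPs against 304 RPKM and 30509 reads in fibroblasts, 1.597-fold lower (1.57 to 1.63). The most abundant of the 35 genes was therefore Scd1 in SKPs and Scd2 in fibroblasts. Scd1 made up 62.7% of the summed RPKM of the pair in SKPs and 23.8% in fibroblasts, and the sum itself was 511 RPKM in SKPs and 399 RPKM in fibroblasts. The counts are headed as unique reads but exceed the reads with a single match. No source used here gives how reads that match both were counted, so the split is uncertain. Of 13 adipocyte markers, 11 were higher in the SKP library, as was Scd1, 1 was lower and 1 was neither. All expressed keratinocyte, leukocyte and mast cell markers were higher there too. The part of these cell types in Scd1 was not tested. Without Scd1 the summed level of the arm was 543 RPKM in SKPs and 792 RPKM in fibroblasts.

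**Figure D3:**
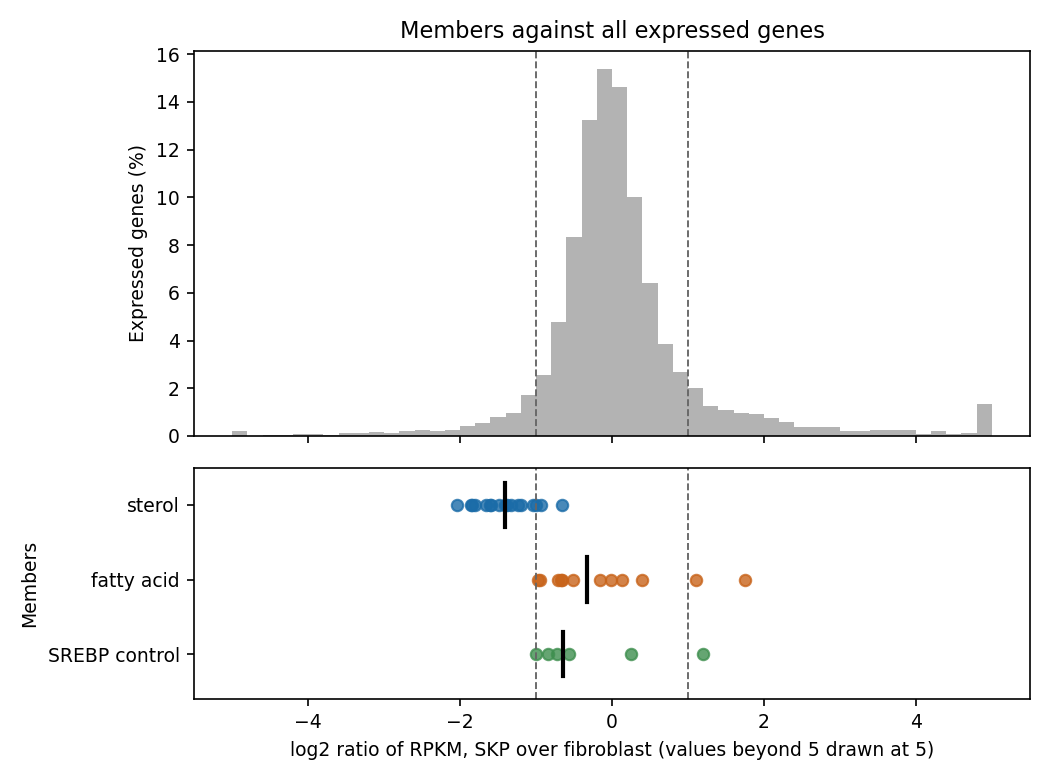
Upper panel, share of expressed genes in percent by log2 ratio of RPKM, SKP over fibroblast, where 52 genes with 0 fibroblast reads and 3 with 0 SKP reads are not drawn. Lower panel, each gene of the 3 arms as a point with the median as a black bar (sterol -1.41, fatty acid -0.34, SREBP control -0.65), with dashed lines at 2-fold.

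The SREBP control genes also differed among themselves. Of 6, 1 was at least 2-fold higher in SKPs, none was 2-fold lower and 5 were neither, counts close to the 12.1% of expressed genes higher and 6.41% lower. Srebf2 had 42.9 RPKM in SKPs against 63.7 RPKM in fibroblasts, 1.49-fold lower (1.42 to 1.55), and Srebf1 had 46.0 RPKM in SKPs against 38.5 RPKM in fibroblasts, 1.19-fold higher (1.14 to 1.25). Scap, the escort that carries SREBP proteins to the Golgi, had 65.0 RPKM in SKPs against 28.3 RPKM in fibroblasts, 2.30-fold higher (2.19 to 2.42), and stood at rank 4 of the 35 genes in SKPs and rank 25 in fibroblasts. It was thus higher in the library in which all 17 sterol enzymes were lower.

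The INSIG proteins retain that escort, and Insig1 is itself a known SREBP target. Insig1 had 28.3 RPKM in SKPs against 56.6 RPKM in fibroblasts, 2.00-fold lower (1.996, interval 1.87 to 2.13) and just outside the 2-fold line. It passed the line when TMM factors replaced the total of counted reads. Insig2 had 6.25 RPKM in SKPs against 10.3 RPKM in fibroblasts, 1.65-fold lower (1.44 to 1.91). Stard4, a cytosolic sterol carrier and SREBP target, had 4.97 RPKM in SKPs against 8.88 RPKM in fibroblasts, 1.79-fold lower (1.54 to 2.08).

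Balances between related genes within a library show how far the pairs moved apart. The ratio of Scd1 to Scd2 RPKM was 1.68 in SKPs (1.65 to 1.71) and 0.312 in fibroblasts (0.304 to 0.319), a 5.40-fold difference between the libraries. The ratio of Srebf1 to Srebf2 was 1.07 in SKPs (1.02 to 1.12) and 0.605 in fibroblasts (0.578 to 0.632). The ratio of Acaca to Acacb was 9.41 in SKPs (8.48 to 10.5) and 15.4 in fibroblasts (13.2 to 18.0). The intervals of these pairs did not overlap between the libraries. For Insig1 to Insig2 the ratio was 4.53 in SKPs (4.01 to 5.13) and 5.47 in fibroblasts (4.98 to 6.02), with intervals that overlapped. The ratio of Elovl6 to Elovl5 was 0.621 in SKPs (0.575 to 0.670) and 0.510 in fibroblasts (0.482 to 0.541). That of Fads2 to Fads1 was 0.533 in SKPs (0.502 to 0.566) and 0.736 in fibroblasts (0.703 to 0.769). For Elovl6 to Elovl5 and for Fads2 to Fads1 the intervals did not overlap between the libraries.

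**Figure D4:**
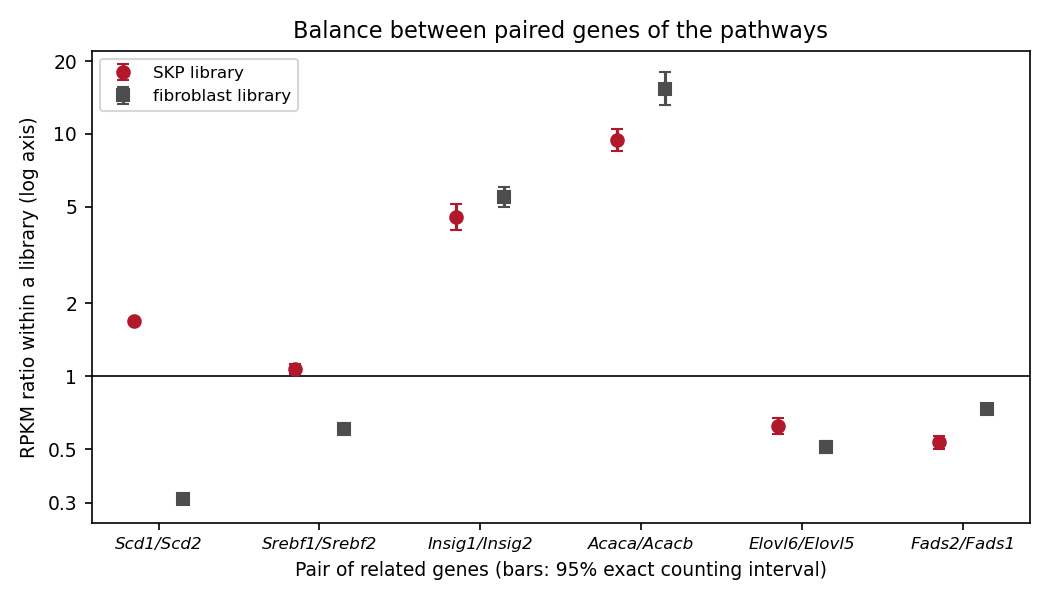
RPKM ratio between the genes of 6 pairs within each library on a log axis, with circles for SKPs, squares for fibroblasts and bars for 95% exact counting intervals. Scd1/Scd2 crosses 1 between the libraries (1.68 in SKPs and 0.312 in fibroblasts), as does Srebf1/Srebf2 (1.07 in SKPs and 0.605 in fibroblasts). By read counts, not drawn, Srebf1/Srebf2 was 1.01 in SKPs, with an interval that held 1 (0.964 to 1.06).

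The 35 genes together took 0.599% of counted reads in SKPs (0.596 to 0.603) and 0.747% in fibroblasts (0.744 to 0.751). The sterol arm took 0.0893% in SKPs and 0.250% in fibroblasts (0.2498), whereas the fatty acid arm took 0.432% in SKPs and 0.419% in fibroblasts and the SREBP control genes 0.0782% in SKPs and 0.0784% in fibroblasts. Of the reads of the 35 genes, the sterol arm held 14.9% in SKPs and 33.4% in fibroblasts, and the fatty acid arm held 72.1% in SKPs and 56.1% in fibroblasts.

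Neighbouring genes of the pathways were read from 6 further lists, whose counts stand against 12.1% of expressed genes higher in SKPs and 6.41% lower. Of 13 expressed isoprenoid and sterol genes, none was higher in SKPs, 2 lower and 11 neither, at a median log2 ratio of -0.18. The lower ones were Sc4mol, the sterol methyl oxidase, at 35.7 RPKM in SKPs against 104 RPKM in fibroblasts, 2.92-fold lower (2.74 to 3.12), and Soat2, which esterifies cholesterol, with 34 reads in SKPs against 101 in fibroblasts. The branches from isoprenoid units to dolichol, ubiquinone and prenylated proteins (Dhdds, Nus1, Pdss1, Pdss2, Coq2, Fntb, Pggt1b and Ggps1) held no gene at least 2-fold apart, and ranged from Coq2, at 5.06 RPKM in SKPs against 9.87 RPKM in fibroblasts, to Pggt1b, at 4.57 RPKM in SKPs against 3.93 RPKM in fibroblasts. Sc4mol acts in the same methyl removal cycle as Nsdhl and Hsd17b7 and lay on the same side.

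Of 15 expressed further genes of fatty acid synthesis, elongation and desaturation, 1 was higher in SKPs, 2 lower and 12 neither, at a median log2 ratio of -0.60, against 12.1% of expressed genes higher and 6.41% lower. Thrsp, a lipogenic nuclear protein of fat cells, had 156 reads in SKPs against 4 in fibroblasts, 37.9-fold higher (14.5 to 141). Its relative Mid1ip1, which activates acetyl-CoA carboxylase, had 22.2 RPKM in SKPs against 53.1 RPKM in fibroblasts, 2.39-fold lower (2.21 to 2.59). Fads3, a desaturase of the Fads family, had 12.4 RPKM in SKPs against 72.2 RPKM in fibroblasts, 5.84-fold lower (5.41 to 6.31), more than any of the 35 genes. The most abundant was Tecr, the reductase of the elongation cycle, at 113 RPKM in SKPs and 187 RPKM in fibroblasts. Scd3 and Scd4, relatives of Scd1, lay below the filter with 16 and 11 reads in SKPs against 24 and 20 in fibroblasts.

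Of 7 expressed NADPH supply genes none was at least 2-fold apart, and the most abundant were Idh1 in fibroblasts, with 58.4 RPKM in SKPs and 88.2 RPKM there, and Pgd in SKPs, with 78.6 RPKM in SKPs and 82.8 RPKM in fibroblasts. Of 5 fatty acid activation genes 2 were higher in SKPs: Acsl1, at 27.04 RPKM in SKPs against 5.46 RPKM in fibroblasts, 4.95-fold higher (4.44 to 5.53), and Acsl6, with 112 reads in SKPs against 25 in fibroblasts. Acsl1 is an abundant acyl-CoA synthetase of adipocytes. Of 13 adipocyte markers, 11 were higher in the same library, 1, Lpl, was lower and 1, Pparg, was neither. The part of adipocytes in the Acsl1 difference was not tested.

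Of 16 further SREBP control genes 1 was higher in SKPs, none lower and 15 neither, at a median log2 ratio of 0.20, near or under the 12.1% of expressed genes higher and 6.41% lower. The higher one was Lpin1, a phosphatidate phosphatase that also restrains nuclear SREBP, at 18.2 RPKM in SKPs against 8.32 RPKM in fibroblasts, 2.18-fold higher (2.02 to 2.37). Mylip, an LXR-induced ubiquitin ligase, lay just under the line at 56.8 RPKM in SKPs against 28.6 RPKM in fibroblasts. Of the proteases that cut SREBP, Mbtps1 had 66.3 RPKM in SKPs against 43.3 RPKM in fibroblasts and Mbtps2 had 7.05 RPKM in SKPs against 6.33 RPKM in fibroblasts. The most abundant of the list was Pgrmc1, at 105 RPKM in SKPs and 89.3 RPKM in fibroblasts.

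Of 13 expressed genes of sterol uptake and transport 3 were higher in SKPs, 2 lower and 8 neither, at a median log2 ratio of 0.41, beside 12.1% of expressed genes higher and 6.41% lower. Higher were Gramd1b, a sterol transfer protein (4.74-fold, 4.04 to 5.60), the lipoprotein receptor gene Lrp1, at 303 RPKM in SKPs against 132 RPKM in fibroblasts, and Vldlr, at 11.5 RPKM in SKPs against 5.13 RPKM in fibroblasts. Lower were Scarb1, the receptor for high-density lipoprotein, at 22.6 RPKM in SKPs against 69.0 RPKM in fibroblasts (68.97), and Lrp8, at 2.49 RPKM in SKPs against 4.997 RPKM in fibroblasts. The carriers that move cholesterol out of lysosomes were under 2-fold apart, with Npc1 at 27.8 RPKM in SKPs against 15.7 RPKM in fibroblasts and Npc2 at 263 RPKM in SKPs against 155 RPKM in fibroblasts.

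**Figure D5:**
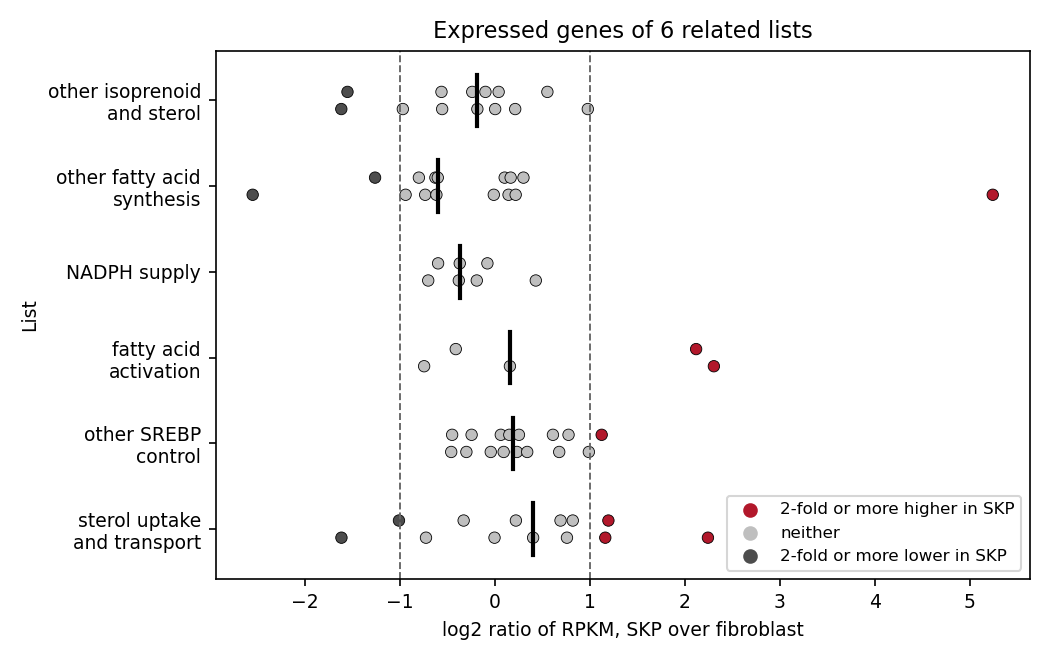
Log2 ratio of RPKM, SKP over fibroblast, for the expressed genes of 6 related lists, with red points at least 2-fold higher in SKPs, dark points at least 2-fold lower, grey points neither, and a black bar at each median. Medians run from -0.60 for further fatty acid synthesis genes to 0.41 for sterol uptake and transport.

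The authors' deposited table of 17431 genes gives the fibroblast over SKP log2 ratio, the opposite direction to the ratios above. Its filtered form holds 2659 genes (15.3%, both directions together) with an absolute log2 ratio of 1 or more and an FDR of 0.001 or less. It contains 18 of the 35 genes, 15 lower and 3 higher in SKPs. The full table rests on the same reads, and its ratios for the 35 genes equal those above apart from sign. These counts are therefore no separate check. In the authors' deposited table Acat2 stands at 1.00 (1.004), inside that limit, and Insig1 at 0.9974, outside it, while only Acss2 of the 35 has an FDR over 0.001. No source used here names the test behind that FDR, and with 1 library per cell type it compares libraries, not cell types.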

How the data were processed

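Poly(A) RNA of 1 SKP and 1 fibroblast culture was sequenced, per the labels' protocols, and each library was grouped by its labelled cell type. The members and gene lists were chosen with earlier results of these data known, and all members are named. From other lists the rule named called genes (up to 4 per direction) and the most abundant gene, and from marker lists up to 3 called genes. Others were named after their values were seen.

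The deposited count is whole reads per gene, not normalized, in a column headed as unique reads. The deposited RPKM divides it by gene length and by the counted total, and was recomputed for the members. The deposited mapping tables give 49-base reads, and 85.13% of 22981183 SKP reads and 81.65% of 23374716 fibroblast reads mapped to genes with at most 2 mismatches, as percent of total reads. Coverage, deposited in percent, gives how much of a gene's length had reads. Despite the heading of unique reads, counted totals exceed reads with a single match by 4370357 in SKPs and 3924587 in fibroblasts. The split between close copies or overlapping genes is therefore uncertain. The authors' table holds a log2 ratio, a p-value and an FDR. Per the submitters' processing notes, reads were placed on mm9. For the aligner, the counting tool, the annotation and strandedness: not given in the sources used here.

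Ratios and exact intervals were computed in Python 3.11.15 with numpy 2.4.6, pandas 2.3.3 and scipy 1.17.1, tested on simulated data, and drawn with matplotlib 3.10.9. TMM factors came from edgeR 4.0.16 in R 4.3.3, used for scaling alone. With 1 library per group no count model, p-value or leave-one-out was run. Alternatives were other scalings, filters, folds, a pseudocount of 1, another denominator and read counts in place of RPKM. Promoter windows came from RefSeq (GRCm38.p6), matched by symbol.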

Additional observations from a re-analysis of the deposited data

How the results depend on the processing

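The 35 log2 ratios kept their direction under TMM factors, median-of-ratios size factors and log2(RPKM + 1), with shifts of at most 0.021, 0.0080 and 0.42. All 17 sterol enzymes and the median of each arm kept their sign under these and under both other filters. Of the 15 sterol enzymes called lower, 14 were so with median-of-ratios factors, without Acat2 (log2 ratio -0.996), and 13 with log2(RPKM + 1), without Acat2 (-0.97) and Hsd17b7 (-0.97). At 3-fold 7 sterol enzymes were lower in SKPs, which are also all the members lower at that fold, and 1 member, Scd1, was higher, leaving 1 fatty acid gene and 0 SREBP control genes higher. At 1.5-fold 25 of the 35 genes were lower, among them 5 fatty acid and 3 SREBP control genes. With log2(RPKM + 1) or at RPKM 5 or more, 1 fatty acid gene was higher. With TMM factors 1 SREBP control gene, Insig1, was lower. Shares of expressed genes called, which stand beside these counts and those below, changed with the setting. At 1.5-fold 18.7% were higher in SKPs and 14.2% lower, and at 3-fold 7.78% higher and 3.04% lower. At RPKM 5 or more 9.23% were higher and 5.33% lower, and with log2(RPKM + 1) 9.11% and 4.21%. With TMM factors 11.8% were higher and 6.68% lower, and with median-of-ratios factors 12.1% and 6.27%. With no filter 12.7% of genes with a read were higher and 6.22% lower.

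Of the further lists, isoprenoid and sterol genes had 1 higher with no filter and 1 higher at 1.5-fold, and 1 lower with log2(RPKM + 1), at RPKM 5 or more and at 3-fold. Further fatty acid genes had 3 higher with no filter, 8 lower at 1.5-fold and 1 lower at 3-fold. NADPH supply genes had 1 lower with no filter and 2 lower at 1.5-fold. Activation genes had 1 higher at RPKM 5 or more and 1 lower at 1.5-fold. SREBP control genes beyond the members had 2 higher with median-of-ratios factors, 5 at 1.5-fold and 0 at 3-fold. Uptake and transport genes had 6 higher at 1.5-fold and 1 at 3-fold, and 1 lower with median-of-ratios factors, with log2(RPKM + 1), at RPKM 5 or more and at 3-fold.

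Without the 10 genes with the most reads, the members took 0.644% of reads in SKPs and 0.825% in fibroblasts, the sterol arm 0.0960% in SKPs and 0.276% in fibroblasts, the fatty acid arm 0.464% in SKPs and 0.463% in fibroblasts, and the SREBP control genes 0.0840% in SKPs and 0.0866% in fibroblasts. By read counts, which do not allow for length, the ratio of Elovl6 to Elovl5 turned round, to 1.32 in SKPs and 1.08 in fibroblasts. Scd1 to Scd2 was then 1.49 in SKPs and 0.277 in fibroblasts, and Fads2 to Fads1 0.231 in SKPs and 0.319 in fibroblasts. Srebf1 to Srebf2 was 1.01 in SKPs, with an interval that held 1 (0.964 to 1.06), and 0.569 in fibroblasts. No paired analysis was possible because each group has 1 library. The members had at least 156 reads each, and at this depth the counting intervals of 8 of them held the line of 2-fold lower, as that of Acacb (1.80 to 2.59) held the line of 2-fold higher, so that their side of it is not settled by these counts.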

Other observations

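The share of gene length under reads was alike in both libraries for most members, but it was low for 3 sterol genes: Fdft1 at 58.5% in SKPs and 61.9% in fibroblasts, Acat2 at 59.6% in SKPs and 62.1% in fibroblasts, and Ebp at 62.5% in SKPs (62.45%) and 63.1% in fibroblasts. For Acacb, the least abundant member, it was 77.0% in SKPs (76.98%) and 51.1% in fibroblasts. Across all 35 members Spearman's rho between SKP and fibroblast RPKM was 0.789, against 0.891 over all expressed genes. It was 0.914 within the sterol arm and 0.916 within the fatty acid arm. These are descriptions over genes that share both libraries.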
